A study of Mus musculus with 8 samples.

Results

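The family of miR-130 and miR-301 is a group of miRNAs that share the seed AGUGCAA, and 4 of them are described here: mmu-miR-130a-3p, mmu-miR-130b-3p, mmu-miR-301a-3p and mmu-miR-301b-3p. The members were taken by name, all 4 of them being among the 1881 mouse miRNAs that the array measures. The array also holds miR-130c and 3 miRNAs of other names with this seed, which were not taken as members. Their levels were compared between kidneys of db/db mice (strain label C57BLKS/J Iar -+Leprdb/+Leprdb), in which the leptin receptor is not functional and obesity and diabetes develop, and kidneys of control mice (strain label C57BLKS/J Iar -m+/m+). Each group held 4 samples of total RNA from kidneys of males aged 28 weeks, each hybridised to 1 single-colour Agilent array. Titles and source labels name the controls differently (dbm in one, m/m in the other), which leaves it unclear if they were free of the mutant allele. The db mutation is a germline allele, present in the kidney as in other tissues. Nothing in the labels ties each sample to its own animal, and the p-values therefore rest on variation among samples, which may be technical.

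A miRNA guides the Argonaute protein to messenger RNAs that pair with its seed, bases 2 to 8 from the 5′ end, and lowers their translation and stability. Members of this family are best known for repressing PPARγ, the nuclear receptor that drives fat cell differentiation. In the vessels of the lung, the family is known to act through PPARγ on other miRNAs, among them miR-204 and the pair that is named miR-322 and miR-503 in rodents. The 5p arm of each hairpin is the strand that is usually discarded.

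The mature sequences show why the members count as 1 family and where they differ. They are given 5′ to 3′ from RefSeq (GRCm38.p6), with the seed in capitals, for the 3 members matched there and for miR-721, which carries the same seed under another name. The member not matched is miR-301b-3p.
miR-130a-3p: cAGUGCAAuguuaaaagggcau
miR-130b-3p: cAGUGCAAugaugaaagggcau
miR-301a-3p: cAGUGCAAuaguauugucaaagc
miR-721: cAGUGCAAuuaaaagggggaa
The 3 members have their first 9 bases in common, and past them miR-301a-3p departs from the miR-130 sequences. The substitutions U11A and A13G, counted from the 5′ end of the mature miRNA, separate miR-130a-3p from miR-130b-3p, and the other 20 of 22 bases are the same.

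Because the paralogues are so alike, the probes that tell them apart matter for every value below. The probe sequences come from the array files, 5′ to 3′ and complementary to the 3′ part of the miRNA, and capitals mark the bases that differ between a probe and the equally long probe of its paralogue.
miR-130a-3p, 18 bases: atgccctttTaAcattgc
miR-130b-3p, 18 bases: atgccctttCaTcattgc
miR-301a-3p, 20 bases: gctttgacaatacTattgca
miR-301b-3p, 20 bases: gctttgacaatacCattgca
Counted from the 5′ end of the probe, the miR-130 probes differ by T10C and A12T and share 16 of 18 bases. The miR-301 probes differ by T14C alone and share 19 of 20 bases. Each of miR-130a-3p and miR-301a-3p had 2 probes of 15 spots on every array, and miR-301b-3p had 4 probes of 7 or 8 spots.

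The 4 members come from 3 chromosomes. The array files, in the build mm9, place the miR-130a-3p probes at chr2:84581317-84581334 on the minus strand and the miR-301a-3p probes at chr11:86926559-86926578 on the plus strand. They place miR-130b-3p at chr16:17124209-17124225 and miR-301b-3p at chr16:17124551-17124569, both on the minus strand, with 325 bases between the 2 probe sites. These spans are printed as the files give them and are 1 base shorter than the longest probe. In the RefSeq annotation, Mir301 overlaps Ska2, a gene of the mitotic spindle and kinetochore. Mir130b and Mir301b both overlap 2610318N02Rik, while Mir130a overlaps no other gene and lies between Ypel4 and Gm19426.

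The 8 arrays lay on 1 slide, with the db/db samples in row 2 and the controls in row 1, so genotype and position on the slide cannot be told apart. The number of miRNAs called detected was 332.5 ± 30.0 per db/db array and 324.25 ± 19.9 per control array (SD, 4 arrays each), and p was 0.657 in a 2-sided exact permutation test. The unscaled log2 75th percentile over the 269 miRNAs seen on every array was 8.65 ± 0.07 in db/db and 8.52 ± 0.11 in control kidneys (exact permutation test, 2-sided, p = 0.0857). Of 316 miRNAs tested, 41.8% passed an adjusted p under 0.05 (limma with Benjamini-Hochberg adjustment), 24.4% higher and 17.4% lower in db/db, and for 41.5% the groups did not overlap. The higher ones made up 58.3% of these calls, but 78.1% with no scaling, 83.1% with scaling to labelling spike-ins and 46.6% with quantile normalization. The median change over all 316 was -0.02 on the log2 scale, and the median size of a change was 0.17.

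In db/db kidneys miR-301a-3p was higher than in control kidneys and passed the test, while miR-130a-3p had a smaller difference in the same direction that narrowly missed it. The other members, miR-130b-3p and miR-301b-3p, were not detected on any array of either group. So 2 of the 4 members could be tested, and 1 passed, against the 41.8% that passed among all miRNAs tested.

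The level of mmu-miR-301a-3p, which is encoded within Ska2, is given as log2 scaled signal, the spot signal after each array was set to a common 75th percentile. It was 7.64, 7.78, 7.63 and 7.79 in db/db replicates 1 to 4, against 7.41, 7.49, 7.47 and 7.52 in control replicates 1 to 4. Every db/db array lay above every control array, and the lowest db/db value was that of replicate 3. Such a lack of overlap was found for 41.5% of all tested miRNAs. The means were 7.71 ± 0.08 in db/db and 7.47 ± 0.05 in control kidneys (SD, n = 4 each). The log2 change was 0.24 ± 0.053 (SE; 95% interval 0.12 to 0.36), a fold of 1.18, with an adjusted p of 0.00714 (limma). The call was lost in 4 of 24 alternatives, namely quantile normalization (limma adjusted p = 0.0507), the brightest probe (0.0523), the deposited table (0.0591) and scaling on all miRNAs of the array (0.834). Among the 316 miRNAs this change ranked 120 by size and 84 by p. Its size was above the median size of 0.17, and many miRNAs changed by more.

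The level of mmu-miR-130a-3p, the member with a gene of its own on chromosome 2, was 10.96, 11.07, 10.98 and 11.07 in db/db replicates 1 to 4. In control replicates 1 to 4 it was 10.87, 10.92, 10.89 and 10.93. Here too no db/db array fell among the controls, as for 41.5% of all tested miRNAs. The gap between the groups was narrow, with the lowest db/db array at 10.96 and the highest control array at 10.93. The means were 11.02 ± 0.06 in db/db and 10.90 ± 0.03 in control kidneys (SD, n = 4 each). The log2 change was 0.12 ± 0.042 (SE; 95% interval 0.02 to 0.21), a fold of 1.09, with an adjusted p of 0.0515 (limma; unadjusted 0.0219). It did not pass, although it passed in 10 of 24 alternatives, among them the fit without db/db replicate 1, where the change was 0.14 and the adjusted p 0.0475. The change was 0.02 with quantile normalization (limma adjusted p = 0.637), 0.05 with the brightest probe (limma adjusted p = 0.465) and 0.07 on the deposited table (limma adjusted p = 0.342). By size it ranked 201 and by p 134 of 316.

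**Figure D1:**
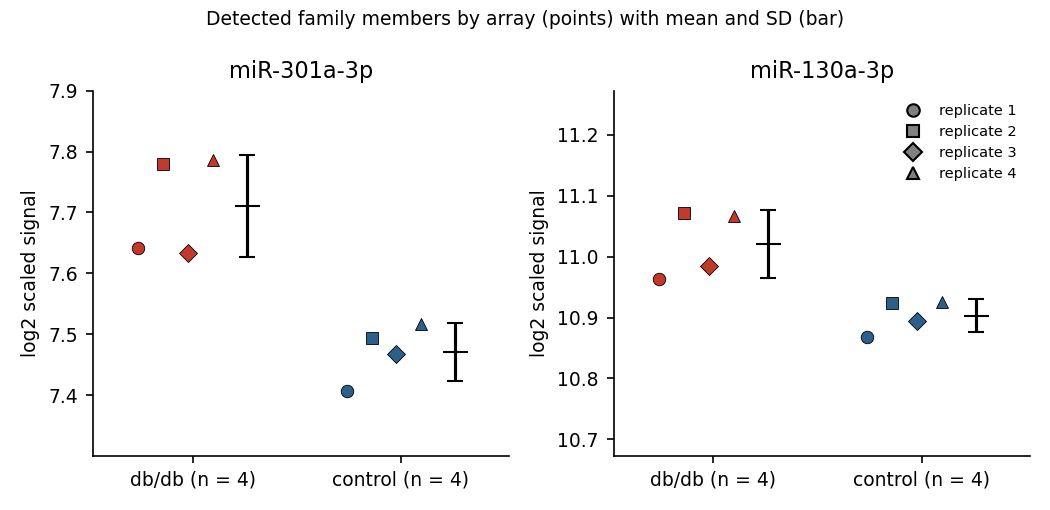
Log2 scaled signal (vertical axes, each panel with its own range) of miR-301a-3p and miR-130a-3p on the 4 db/db and 4 control arrays; points are arrays, with a symbol for each replicate number, and bars show the mean and SD. The db/db arrays sit above all control arrays in both panels, by a wider gap for miR-301a-3p (lowest db/db 7.63, highest control 7.52) than for miR-130a-3p (10.96 and 10.93). The groups did not overlap for 41.5% of all tested miRNAs.

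The plot of the detected members by array also shows that the arrays keep nearly the same order for both miRNAs. Replicates 2 and 4 are the higher ones in each group, and replicate 1 is the lowest control for both.

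Before any scaling, the separation was also present. The processed signal of miR-301a-3p was 220, 217, 210 and 229 in db/db replicates 1 to 4 and 149, 171, 169 and 193 in control replicates 1 to 4. That of miR-130a-3p was 2204, 2128, 2139 and 2220 in db/db replicates 1 to 4 and 1644, 1840, 1816 and 2053 in control replicates 1 to 4. Without scaling both members passed, with log2 changes of 0.37 for miR-301a-3p and 0.25 for miR-130a-3p, while the median over all 316 moved to 0.10. With scaling to labelling spike-ins the changes were 0.42 and 0.30, and that median was 0.15. Set against the median change of each setting, the change lay between 0.22 and 0.30 for miR-301a-3p and between 0.08 and 0.20 for miR-130a-3p over the 24 alternatives.

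The authors' deposited value table gives a ratio for each miRNA and array, in which each miRNA and each array was divided by a factor of its own that the labels and headers do not explain. Its values for miR-301a-3p were 0.999, 1.155, 1.103 and 1.145 in db/db replicates 1 to 4 and 0.873, 0.997, 0.979 and 1.00 in control replicates 1 to 4. There the lowest db/db array lay just under the highest control array, so the groups overlapped. On that table the log2 change of miR-301a-3p was 0.19 with an adjusted p of 0.0591 (limma), which does not pass. For miR-130a-3p the table has 0.935, 1.06, 1.05 and 1.04 in db/db replicates 1 to 4 and 0.901, 1.00, 0.985 and 0.995 in control replicates 1 to 4, also with overlap.

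**Figure D2:**
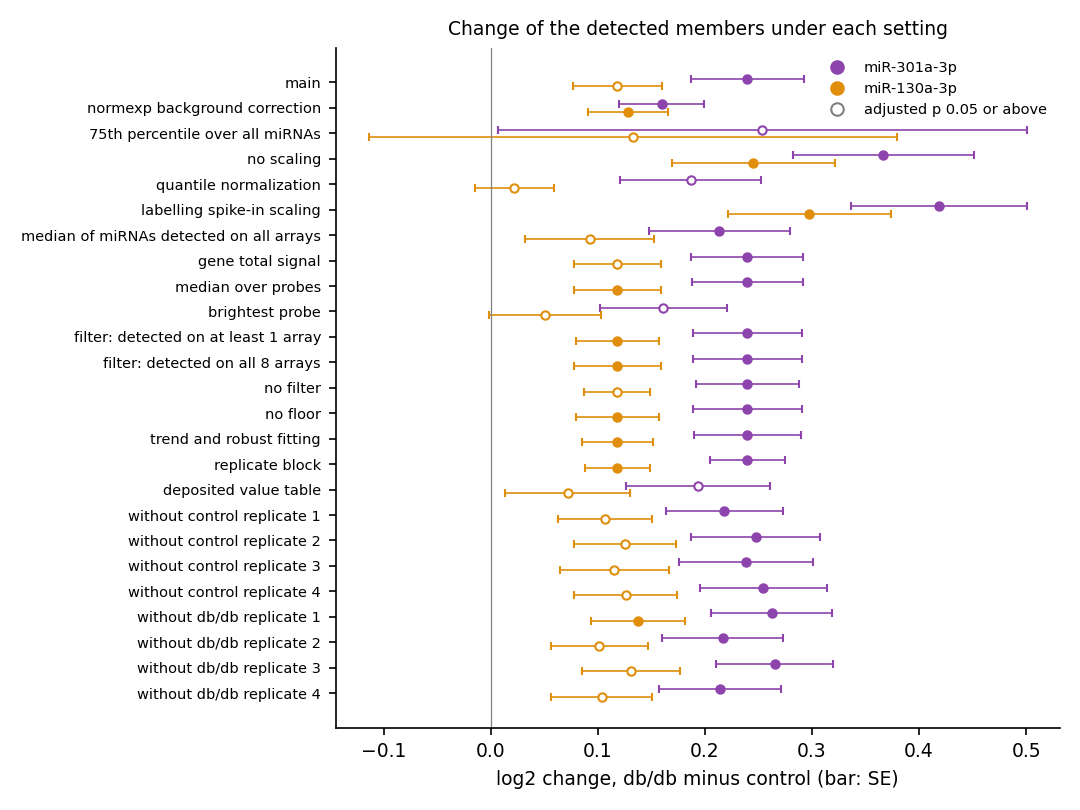
Log2 change, db/db minus control (horizontal axis), of miR-301a-3p and miR-130a-3p with the reported processing (top) and with each of 24 alternatives; bars are the SE, and open points have an adjusted p of 0.05 or above. All points lie right of 0; miR-301a-3p passes in 20 alternatives and miR-130a-3p in 10.

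The plot of the change under each setting shows the same direction throughout for both members. The call of miR-301a-3p held in every alternative that left out 1 array. The widest bars belong to scaling on all miRNAs of the array, most of which are undetected, where 34 miRNAs were called in all.

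The 2 detected members did not change by the same amount. The log2 ratio of miR-301a-3p to miR-130a-3p within an array, which a scaling factor for the whole array leaves unchanged, was -3.32, -3.29, -3.35 and -3.28 in db/db replicates 1 to 4. In control replicates 1 to 4 it was -3.46, -3.43, -3.43 and -3.41. All db/db arrays lay above all control arrays, which means that miR-301a-3p was higher relative to miR-130a-3p in db/db kidneys. Among single tested miRNAs the groups did not overlap for 41.5%. The share of other pairs of miRNAs whose ratio separates like this was not computed, so the separation is not shown to be particular to this pair. The mean was -3.31 ± 0.03 in db/db and -3.43 ± 0.02 in control kidneys (SD, n = 4 each), a difference of 0.12 ± 0.019 (SE). The exact permutation test over 70 assignments gave p = 0.0286 (2-sided), the smallest that 4 against 4 arrays allow, and this was the only pair of members that could be compared. With normexp background correction the difference was 0.031 and the exact permutation p 0.0857, so the difference did not pass with that correction. The correction adds an offset of 50 to each signal, which shrinks the log2 changes of weak signals, and it also changes the background taken off. Which of these lowered the difference was not tested.

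The 2 probes of each detected member gave like changes. For miR-301a-3p, the 20-base probe read 7.09 ± 0.08 in db/db and 6.83 ± 0.04 in control kidneys, a difference of 0.26 on the log2 scale. Its 21-base probe read 8.14 ± 0.09 in db/db and 7.91 ± 0.05 in control kidneys, a difference of 0.23. Both miR-130a-3p probes differed by 0.12, the 18-base probe with 10.89 ± 0.06 in db/db and 10.77 ± 0.02 in control kidneys, and the 19-base probe with 11.14 ± 0.05 in db/db and 11.02 ± 0.04 in control kidneys (all SD, n = 4 each). For none of the 4 probes did the groups overlap. The share of 41.5% without overlap is over whole tested miRNAs, and no share over probes was computed. The 2 probes of a miRNA were read on the same 8 arrays and are not separate evidence. The coefficient of variation over the spots of a probe on 1 array was 2.49 to 11.3% for miR-301a-3p and 0.774 to 8.07% for miR-130a-3p. All 240 spots of each of these members, counted over the 8 arrays, were well above background.

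**Figure D3:**
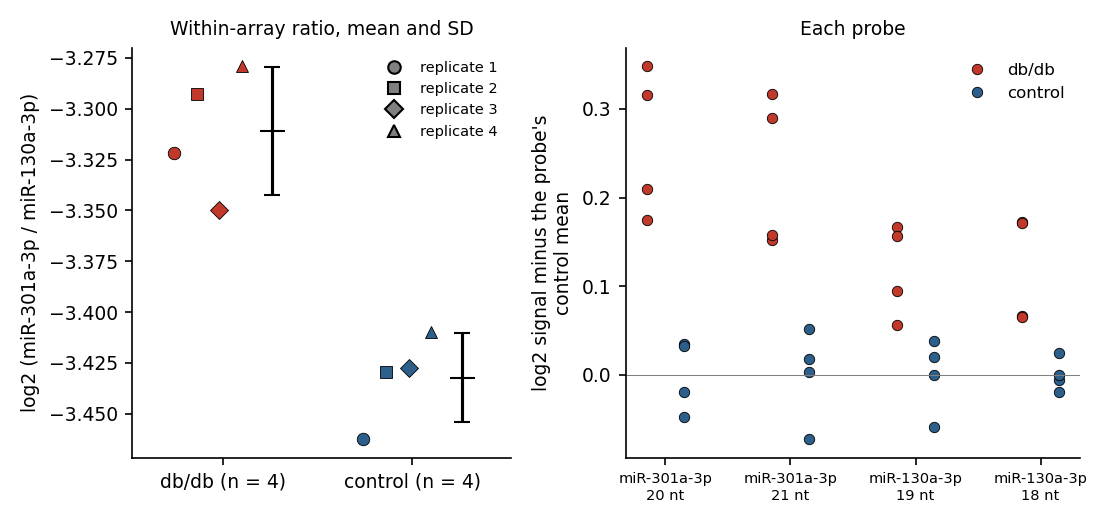
Left: log2 ratio of miR-301a-3p to miR-130a-3p on each array, with mean and SD, db/db beside control (n = 4 each). Right: log2 signal of each probe minus the mean of the control arrays for that probe; both probes of miR-301a-3p lie further above 0 in db/db than both probes of miR-130a-3p, with mean differences of 0.26 and 0.23 against 0.12 and 0.12.

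The plot of the ratio and of single probes shows that the larger change of miR-301a-3p was present in both of its probes and not carried by 1 of them.

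The paralogues encoded together on chromosome 16 gave no measurable signal. The scaled signal of mmu-miR-130b-3p, on the linear scale and before any floor, was -2.84 to -0.50 in db/db and -2.24 to -0.01 in control kidneys. That of mmu-miR-301b-3p was -3.66 to -2.44 in db/db and -4.18 to -1.95 in control kidneys. A detected miRNA reached at least 0.0819 to 6.63 on these arrays, depending on the array, and none of the 240 spots of either miRNA was well above background. The miR-130b-3p probe that differs from that of miR-130a-3p by T10C and A12T read -1.45 to 1.90 over the 8 arrays, on all of which miR-130a-3p was detected. Likewise the miR-301b-3p probe that differs from that of miR-301a-3p by T14C read -0.92 to 1.38, with miR-301a-3p detected on all 8. No fold change is given for the undetected members, since neither group has a measured level, and not detectable on these arrays does not mean absent.

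The 5p arms were undetected as well, so none of the 4 arm pairs could be compared. The scaled signal of miR-130a-5p was 0.447 to 2.05 in db/db and 0.346 to 2.86 in control kidneys. For miR-130b-5p it was 2.26 to 4.30 in db/db and 2.45 to 4.26 in control kidneys, and for miR-301a-5p 0.279 to 2.81 in db/db and 1.58 to 2.87 in control kidneys. Each of these 3 arms passed the floor of 2.80, to which lower signals were set, on at least 1 array, and their groups overlapped. For miR-301b-5p it was -3.01 to -0.92 in db/db and -3.30 to -1.51 in control kidneys, and of the 240 spots of each arm at most 1 was well above background.

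The miRNAs with the same seed that were not taken as members are miR-130c, miR-721, miR-6341 and miR-6389. None of the 4 was detected on any array, and none was tested. The undetected miR-721 still read higher on the db/db arrays. Its scaled signal was 3.35, 2.76, 6.83 and 9.54 in db/db replicates 1 to 4, against -0.72, -0.56, -4.22 and -1.93 in control replicates 1 to 4. Outlier spots left out numbered 1, 1, 3 and 0 of 30 in db/db and 5, 0, 6 and 7 of 30 in control replicates 1 to 4. All db/db arrays lay above all control arrays, but none of the 240 spots was well above background. The probes of miR-721 are short, with 12 to 15 bases. Of the 10 undetected miRNAs described here, miR-721 was the only one with this pattern, and no share over the other undetected miRNAs of the array is given.

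**Figure D4:**
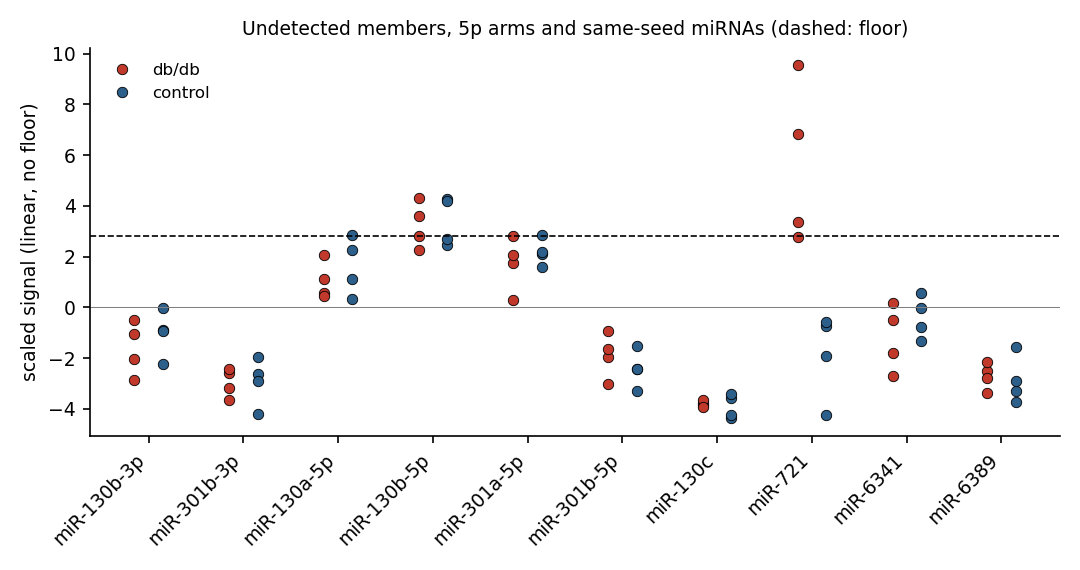
Scaled signal (linear, no floor; vertical axis) of the 2 undetected members, the 4 5p arms and 4 miRNAs with the same seed on each db/db and control array; the dashed line is the floor of 2.80. Most points lie under the floor, with the groups mixed. The miR-721 points separate, at 2.76 to 9.54 in db/db and -4.22 to -0.56 in control arrays, with no spot well above background. How many other undetected miRNAs of the array separate was not counted.

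In the plot of undetected miRNAs, both undetected members lie under 0 on every array, while the 5p arms other than miR-301b-5p lie above 0.

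Families whose seed shares 6 bases with that of miR-130 and miR-301, shifted by 1 base, changed in both directions. They are printed with the seed in capitals. The stretch GUGCAA is common to the family and to miR-19, and AGUGCA is common to the family and to miR-148 and miR-152.
miR-19a-3p: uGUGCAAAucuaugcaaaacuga
miR-19b-3p: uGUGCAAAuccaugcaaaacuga
miR-148a-3p: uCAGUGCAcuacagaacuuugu
miR-148b-3p: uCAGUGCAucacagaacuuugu
miR-152-3p: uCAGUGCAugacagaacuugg
Of the 5, 2 rose and 3 fell (miR-19b-3p not with every scaling), with a median change of -0.16 beside the -0.02 of all tested miRNAs, of which 41.8% passed, 24.4% higher and 17.4% lower. For all 5 the groups did not overlap, beside 41.5% of all tested miRNAs. The gap was very narrow for miR-19b-3p, with the highest db/db array at 9.548 and the lowest control array at 9.553.

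Both miR-19 members belong to the growth-promoting cluster that is named after miR-17, and both fell with the reported scaling. Values of miR-19a-3p were 6.53, 6.60, 6.38 and 6.61 in db/db replicates 1 to 4 and 6.81, 6.90, 6.94 and 6.88 in control replicates 1 to 4. Its log2 change was -0.35 ± 0.061 (SE), with an adjusted p of 0.00252 (limma), and it was -0.23 and -0.17, with adjusted p of 0.068 and 0.101, without scaling and with spike-in scaling. The fall of miR-19b-3p was smaller, with 9.51 ± 0.05 in db/db and 9.67 ± 0.08 in control kidneys (SD, n = 4 each), a log2 change of -0.16 ± 0.053 (SE; limma adjusted p = 0.0404), and it flipped to 0.016 with spike-in scaling. Leaving out any 1 array other than control replicate 1 ended this call, with changes of -0.20 to -0.14 over the 8 arrays left out.

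Within the family of miR-148 and miR-152, whose members share their whole seed, the direction was mixed. The level of miR-148b-3p was 6.39, 6.48, 6.41 and 6.43 in db/db replicates 1 to 4 and 6.06, 6.13, 6.03 and 6.05 in control replicates 1 to 4. This was a log2 change of 0.36 ± 0.040 (SE; limma adjusted p = 0.000420), and 0.15 with normexp background correction, where it still passed. The level of miR-152-3p was 7.89 ± 0.05 in db/db and 7.63 ± 0.09 in control kidneys (SD, n = 4 each), a log2 change of 0.26 ± 0.054 (SE; limma adjusted p = 0.00531), and 0.14 with an adjusted p of 0.155 after quantile normalization. In contrast, miR-148a-3p read 4.64, 4.49, 4.46 and 4.45 in db/db replicates 1 to 4 and 4.86, 5.08, 4.95 and 5.09 in control replicates 1 to 4. Its log2 change was -0.49 ± 0.069 (SE; limma adjusted p = 0.000944), and -0.20 with normexp background correction, where it still passed.

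Of 6 miRNAs tied by earlier work to PPARγ or to the vascular role of the family, 5 were detected on all 8 arrays. Of these, 3 rose, none fell and 2 did not pass, with a median change of 0.23, beside 24.4% higher and a median of -0.02 among all tested miRNAs. The sixth, miR-503-5p, entered the test only through the db/db arrays and is not counted. The list joins miRNAs on which the family is known to act with miR-27b-3p, which targets PPARγ. Its count therefore does not bear on the direction of that axis, which was not tested. The share of higher calls among all miRNAs depends on the scaling, as given above, and miR-27a-3p and miR-21a-5p passed with spike-in scaling, at 0.23 and 0.32, while miR-27b-3p did not pass with quantile normalization. The largest change was that of miR-204-5p, a miRNA of epithelia that is abundant in kidney tubules, with 8.32, 8.35, 8.29 and 8.39 in db/db replicates 1 to 4 and 7.28, 7.32, 7.24 and 7.32 in control replicates 1 to 4. Its log2 change was 1.05 ± 0.041 (SE; limma adjusted p = 1.94e-06), and it passed in all 24 alternatives. The level of miR-322-5p, which restrains the cell cycle and lies beside miR-503-5p on the X chromosome, was 8.91 ± 0.02 in db/db and 8.55 ± 0.08 in control kidneys (SD, n = 4 each). Its log2 change was 0.36 ± 0.047 (SE; limma adjusted p = 0.000647).

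The partner miR-503-5p was detected on every db/db array and on 3 of the 4 control arrays. Its level was 3.51 to 3.91 in db/db and 2.94 to 3.403 in control kidneys. The log2 change was 0.55, and -0.0083 with normexp background correction. That correction adds an offset of 50, which shrinks the log2 changes of weak signals, and it also changes the background taken off. What moved the change of miR-503-5p was not tested. Since miR-503-5p passed the filter only through the group in which it is higher, no call is drawn from it. The level of miR-27b-3p, which targets PPARγ, was 10.20 ± 0.05 in db/db and 9.97 ± 0.05 in control kidneys (SD, n = 4 each). Its log2 change was 0.23 ± 0.045 (SE; limma adjusted p = 0.00399), and 0.11 with an adjusted p of 0.119 after quantile normalization. Its paralogue miR-27a-3p had a change of 0.05 (95% interval -0.07 to 0.16; limma adjusted p = 0.469), and miR-21a-5p, known from kidney fibrosis, one of 0.15 (95% interval 0.01 to 0.28; limma adjusted p = 0.0828). Without control replicate 1, miR-21a-5p passed, with a change of 0.19 and an adjusted p of 0.0206.

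**Figure D5:**
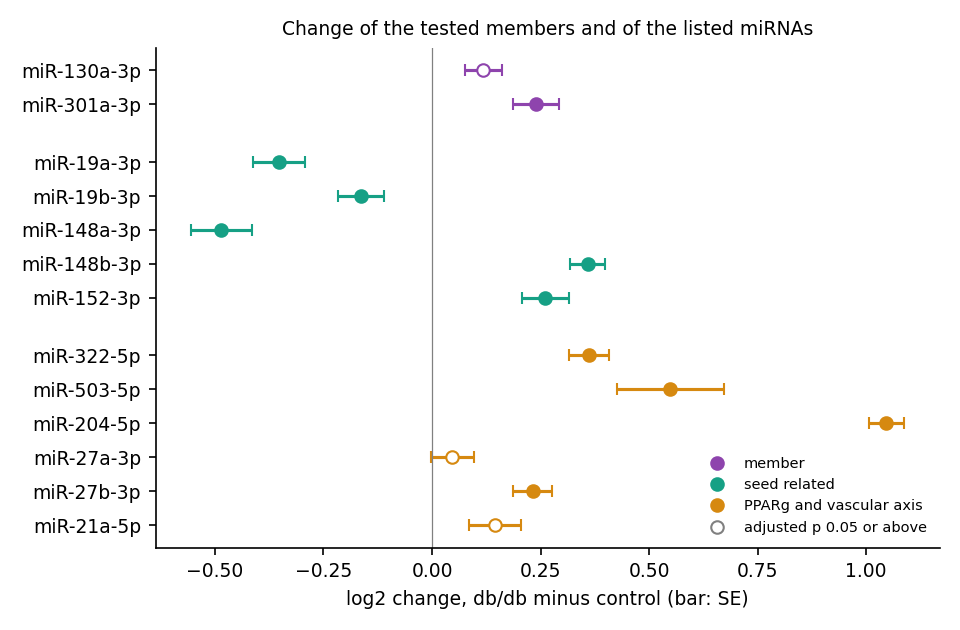
Log2 change, db/db minus control (horizontal axis), of the 2 tested family members, 5 miRNAs with a related seed and 6 miRNAs tied to PPARγ or to the vascular role of the family; bars are the SE and open points have an adjusted p of 0.05 or above. The members lie at 0.12 and 0.24, the related seeds on both sides of 0 from -0.49 to 0.36, and the last group between 0.05 and 1.05. The point of miR-503-5p is filled, but that miRNA entered the test only through the db/db arrays, so no call is drawn from it.

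The plot of listed miRNAs places the family members among the smaller changes shown. The miRNAs of these lists were chosen with earlier results of these data known, so their counts are a description.

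The miRNAs whose levels followed the detected members most closely over the 8 arrays were the same for both. By Pearson correlation of log2 scaled signal, miR-130a-3p and miR-301a-3p were each the closest of 268 candidates to the other, with r = 0.988. Next came miR-15b-5p, a miRNA of the miR-15/16 family that represses cell cycle genes, with r = 0.984 to miR-130a-3p and 0.986 to miR-301a-3p. It was followed by miR-1839-5p, with r = 0.976 and 0.982. These correlations describe 8 arrays that share the difference between the groups and the scaling. The level of miR-15b-5p was 9.32 ± 0.09 in db/db and 9.09 ± 0.04 in control kidneys (SD, n = 4 each), a log2 change of 0.24 (limma adjusted p = 0.00730). That of miR-1839-5p was 6.13 ± 0.06 in db/db and 5.92 ± 0.05 in control kidneys (SD, n = 4 each), a log2 change of 0.21 (limma adjusted p = 0.00660), and 0.06 with an adjusted p of 0.214 after normexp background correction.

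Kidney RNA mixes many cell types, and fewer cells of a type cannot be told apart from less RNA per cell. Some lists of miRNAs typical of single cell types differed between the groups and others did not, given here as the sum of scaled signal over each list. The calls stand beside 41.8% called among all tested miRNAs, 24.4% higher and 17.4% lower. For leukocytes the sum was 191 to 283 in db/db and 445 to 599 in control kidneys, and the 3 of 4 miRNAs detected on all 8 arrays fell. The fourth was detected on every control array and on 1 db/db array, so it entered the test only through the controls. For stroma it was 626 to 677 in db/db and 797 to 958 in control kidneys, and 2 of 2 fell. For tubule it was 11402 to 11814 in db/db and 10342 to 10856 in control kidneys, and 2 of 4 rose, one of them miR-204-5p. The endothelial sum was 3648 to 3807 in db/db and 3913 to 4194 in control kidneys, with 0 of 2 passing. The hepatocyte miRNA miR-122-5p, the only one in its list, summed to 50.2 to 133 in db/db and 0 to 2.36 in control kidneys, where it was undetected. It entered the test only through the db/db arrays, so no call is drawn from it. Red cell sums were 646 to 3564 in db/db and 703 to 3058 in control kidneys, and smooth muscle and pericyte sums were 452 to 508 in db/db and 452 to 519 in control kidneys, with 0 of 2 passing in each list. The part of these shifts in the changes of miR-301a-3p and miR-130a-3p was not tested. Of the marker miRNAs that were detected on all 8 arrays and passed, none changed direction in any alternative. Those that entered through 1 group are left out of this statement.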

How the data were processed

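The deposited spot intensity values and flags (other) were made by Agilent Feature Extraction 12.0.3.1 with spatial detrending on, background correction off and no dye normalization, per the submitters' processing notes for the version and per the file headers for the rest. Cy3 labelling used 100 ng of total RNA, per the labels. The authors also deposited a linear ratio table, used as an alternative. Its column medians were 0.857, 1.01, 0.994 and 0.947 in db/db replicates 1 to 4 and 1.11, 1.10, 1.10 and 0.980 in control replicates 1 to 4. Across 269 miRNAs (no independent replicates), its log2 changes correlated at 1 with those of the gene total signal and lay 0.17 below them, so a higher value means more signal. Its scaling and centring factors are unknown.

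Processed signals of spots that were not outliers were averaged per probe and then per miRNA. Arrays were scaled to an equal 75th percentile over 269 miRNAs detected on all 8. Signals under 2.80, the median over arrays of the lowest detected signal, were set to that floor, and log2 was taken. Tests covered 316 miRNAs, those detected on every array of one group or both, and used limma 3.58.1 (R 4.3.3, data.table version 1.17.8; lmFit, eBayes, Benjamini-Hochberg, 2-sided, threshold 0.05). The ratio of the members was tested by exact permutation over 70 assignments. No miRNA spot was saturated. Precision is limited by the number of arrays. The limma fit was tested on simulated data and the permutation test on a constructed set of values. The averaging, scaling, floor and filter were not tested in this way.

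Named miRNAs were all members, their 5p arms, miRNAs of the same or a shifted seed, the PPARγ list, and the 3 miRNAs most correlated with each detected member. Members and lists were chosen with earlier results of these data known. The alternatives changed the background correction, scaling, summary, filter, floor, fit, replicate block and table, or left out 1 array. The normexp background correction used an offset of 50, which shrinks the log2 changes of weak signals. Same-numbered samples deviated from their group means with correlations of -0.43, 0.41, -0.05 and -0.07, so the numbers were not used as pairs.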

Additional observations from a re-analysis of the deposited data

Results flagged for a closer look

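The control replicate 1 value of miR-322-5p, 8.43 on the log2 scale, lay far from the other 3 controls, the nearest of which was 8.58. The gap made up 0.949 of the range, above the 95% critical value of Dixon's test for 4 samples. In control replicates 2 and 4, however, miR-322-5p was itself the 75th percentile to which the arrays were scaled. Scaling therefore made these values equal, at 8.59, and the test cannot judge the gap. Before scaling, the signal was 304, 364, 365 and 406 in control replicates 1 to 4. This group was 1 of 52 groups of 4 arrays looked at, and chance flags about 1 in 20. All 4 db/db arrays, at 8.88 to 8.93, were above every control.

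The scaled signal of miR-721, which has the family seed but was not detected and entered no test, reached 9.54 on a db/db array, against -0.56 on the highest control array. This was a signal outside the tested miRNAs that exceeded the level in the controls. The difference was not tested, and how many other undetected miRNAs of the array show such a pattern was not counted.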

How the results depend on the processing

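Over 24 alternatives the change of miR-301a-3p stayed positive (0.16 to 0.42) and passed in 20; that of miR-130a-3p stayed positive (0.02 to 0.30; adjusted p 0.0105 to 0.962) and passed in 10. The call of miR-301a-3p was lost with scaling on all miRNAs (0.25, adjusted p 0.834), quantile normalization (0.19, 0.0507), the brightest probe (0.16, 0.0523) and the deposited table (0.19, 0.0591). That of miR-130a-3p was gained with normexp (0.13, adjusted p 0.0198), no scaling (0.25, 0.0294), spike-in scaling (0.30, 0.0105), and, at 0.12, with the median over probes (0.0495), detection on at least 1 array (0.0459) or all 8 (0.0469), no floor (0.0435), trend and robust fitting (0.0145) and the replicate block (0.0352). Leaving out 1 array gave 0.21 to 0.27 for miR-301a-3p and 0.10 to 0.14 for miR-130a-3p. The difference in the log2 ratio of the members was 0.031 with normexp (exact permutation p = 0.0857), 0.12 with the replicate block (exact sign-flip p = 0.125, the smallest possible) and 0.11 to 0.13 without 1 array. The replicate block raised the share called to 45.6%. Calls numbered 132, with 77 higher and 55 lower; scaling on all miRNAs gave 34, 23 and 11, spike-in scaling 138 higher and 28 lower, no scaling 28 lower, the brightest probe 88 lower and no filter 27 lower. Leaving out 1 array gave 113 to 139 calls, 70 to 83 higher and 42 to 56 lower. Directions reversed for miR-19b-3p with spike-in scaling (0.016), miR-503-5p with normexp and its offset of 50 (-0.0083) and miR-27a-3p with quantile normalization (-0.066) and the brightest probe (-0.032). The cause was not tested. Genotype follows the slide row, paralogue probes differ by few bases, and 4 arrays a group and the background limit what can be detected.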

Other observations

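The likeness of the detected members was also computed on deviations from the group means, an alternative chosen after seeing the data, so that the difference between genotypes did not enter. Over the 8 arrays, miR-130a-3p and miR-301a-3p had r = 0.976 and were again each the closest of 268 candidates to the other. For miR-15b-5p r was 0.959 with miR-130a-3p and 0.927 with miR-301a-3p, rank 2 for both. For miR-1839-5p r was 0.946 with miR-130a-3p, rank 3, and 0.906 with miR-301a-3p, rank 5. The arrays share 1 slide and 1 scaling, and whether either adds to these values was not tested.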
